A study of Ovis aries with 2 samples.

Results

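The genes of the sperm flagellum and its axoneme were followed through the germ cells of sheep testis in single-cell RNA libraries. Members were taken by symbol: every symbol that starts with CFAP, DNAH, DNAI, TEKT, RSPH, ODF or SPAG, or with DRC or IFT and a digit. The rule uses names only and found 78 of the 27054 genes in the matrices, of which 16418 have a symbol: 24 CFAP, 11 DNAH, 2 DNAI, 5 TEKT, 5 RSPH, 6 ODF, 8 SPAG, 3 DRC and 14 IFT genes. The study holds 1 control library and 1 ZEA library, whose treatment label carries 0.75 without a unit. ZEA commonly stands for zearalenone, an oestrogenic mould toxin, although no label says so. Both libraries are of testis at 8 months of age, with no strain, genotype, exposure time or number of animals in the labels. With 1 library per group no test between groups is possible, and treatment, animal, preparation and software version cannot be told apart. Every interval below is an exact 95% interval that covers counting error only.

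The axoneme is a cylinder of microtubule doublets around a central pair. Outer and inner dynein arms on the doublets slide them past each other, and radial spokes, the nexin-dynein regulatory complex and the central pair control that motion. Tektins and other inner proteins line the doublets, intraflagellar transport (IFT) trains carry parts to the growing tip, and in sperm the outer dense fibres stiffen the axoneme. Spermatids stop transcription as they elongate, so many tail proteins are translated late from messages made earlier.

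The control matrix held 53044981 UMIs in 7030 barcodes and the ZEA matrix 22148456 in 8809. A UMI (unique molecular identifier) marks 1 captured RNA molecule. After filters, 6811 control cells with a median of 4121 UMIs and 8804 ZEA cells with a median of 1405.5 UMIs remained, and the libraries shared 15 barcodes. Cells were clustered with every member gene left out of the clustering, so that the stage of a cell does not rest on the genes described. Stage names come from marker lists that hold no member, and "like" is meant with each: pachytene spermatocyte (173 control cells, 14 ZEA cells), late spermatocyte (1002 and 3), round spermatid (1323 and 1315), elongating spermatid (1603 and 939) and elongated spermatid (511 and 7). The elongating and elongated marker lists led in the same clusters, and that pair was divided afterwards by whether SPEM1 and OAZ3 together exceeded HMGB4. The ZEA library had too few spermatocytes and elongated spermatids to be compared, and 2023 control and 2579 ZEA cells stayed unnamed. No cluster held 50 cells of each library.

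Depth and purity differed between the libraries at each shared stage. The median round spermatid-like cell had 13468 UMIs in control and 1642 in ZEA tissue, and the elongating class 7282 and 1775. The control round class was made of clusters 1 and 4, and the ZEA round class of cluster 17, with a median of 9730 UMIs, and cluster 2, with 1137. HMGB4, a chromatin protein of later spermatids, was at 7263 UMIs per 1000000 UMIs of the class (CPM) in the control round class and 3883 CPM in the ZEA round class. SYCP1, a synaptonemal complex protein of spermatocytes, was at 36.0 and 185 CPM. In the elongating class HMGB4 was at 12741 and 9022 CPM. Peritubular myoid markers summed to 1.92 CPM in control and 108 CPM in ZEA round cells, with 1 of 7 at 0 in each. Their part in the results was not tested.

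In the control library most members were already present in spermatocytes, and 2 genes of the ODF family, ODF1 and ODF3L2, had the latest onset by CPM. Onset was set as the earliest stage in which a gene reached 25% of its highest stage CPM. A gene needed 50 UMIs over the stages, which 75 members had. CFAP73 had no UMI, RSPH4A 7 and IFT46 33 over the control stages. The onset was pachytene in 61 of the 75 members (81.3%), where 71.6% of the 10715 genes with enough UMIs had it. It was late spermatocyte in 5 (4.16% of all genes), which were TEKT3, TEKT4, IFT57, DNAH11 and ODF3L1. It was round spermatid in 7 (20% of all genes), which were TEKT5, DNAH3, CFAP20, CFAP97D1, CFAP100, SPAG4 and ODF3. The onset was elongating spermatid in 0 (2.66% of all genes) and elongated spermatid in 2 (1.59% of all genes). Pachytene was the earliest stage with enough cells, so that an onset there means present by then.

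The stage of the highest level was spread more widely than the onset. It was pachytene in 20 members (26.7%, against 33.8% of all genes), late spermatocyte in 24 (32%, against 22.7%) and round spermatid in 22 (29.3%, against 19.9%). Only 5 members peaked in elongating cells, where 14.1% of all genes did, and 4 in elongated cells, where 9.5% of all genes did. RNA of later cells was seen in the early classes at a low level: HMGB4 in pachytene cells stood at 7.05% of its elongating level and SPEM1 at 2.16% of its elongated level.

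**Figure D1:**
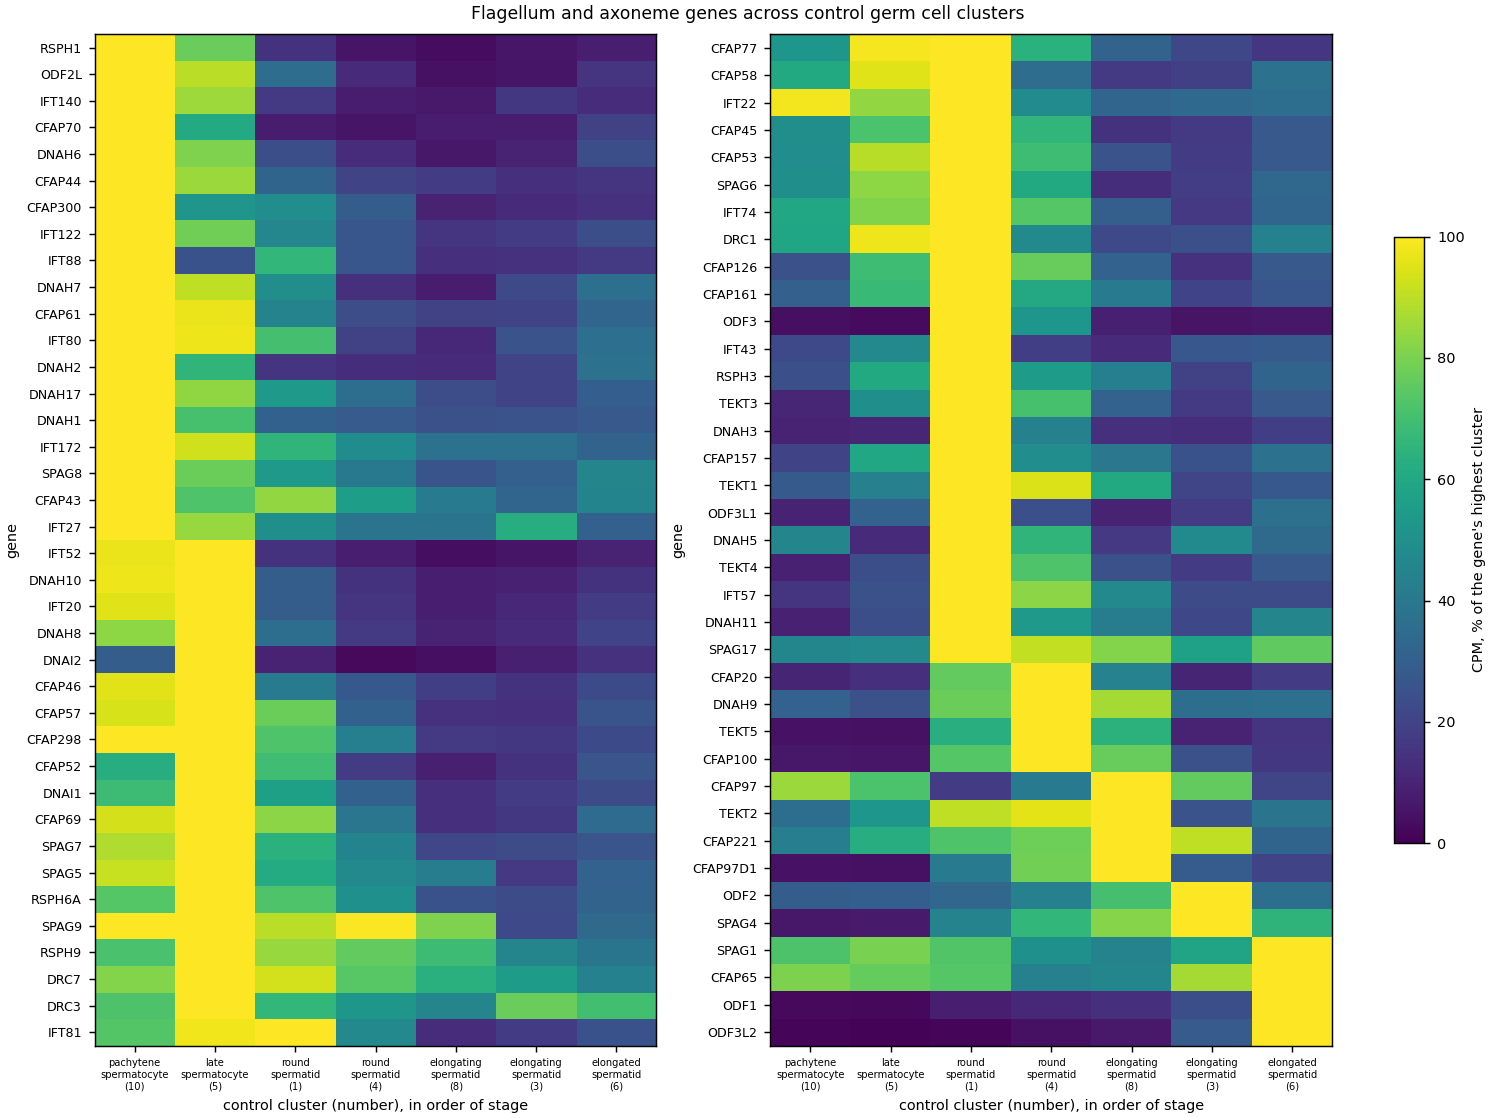
Heat maps of the 75 members with enough UMIs (rows, ordered by the cluster of the highest level) over the 7 control germ cell clusters in order of stage (columns), coloured by CPM as a percentage of the gene's highest cluster. Most rows are bright in the spermatocyte or round spermatid columns, and ODF1 and ODF3L2 are bright only in the last column.

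The dynein heavy chains, the motors of the arms, were mostly present by pachytene, at a share near that over all genes. Of 11 DNAH genes 9 had a pachytene onset (71.6% of all genes). Of the 11, 5 peaked in pachytene (33.8% of all genes), 2 in late spermatocytes (22.7%) and 4 in round cells (19.9%). DNAH8, an outer arm heavy chain, stood at 342 CPM in pachytene, 413 in late spermatocyte, 106 in round, 41.8 in elongating and 82.6 in elongated cells. DNAH17, its outer arm partner in sperm, ran from 120 CPM in pachytene to 27.9 CPM in elongating cells. The inner arm chains DNAH6, DNAH7 and DNAH10 likewise had their lowest levels in elongating cells. DNAH3, another inner arm chain, had a different course: 9.84 CPM (29 UMIs) in pachytene, 71.3 CPM (1374 UMIs) in round and 14.2 CPM in elongating cells. DNAH11, an outer arm chain best known from airway cilia, rested on 517 UMIs and passed the onset threshold in late spermatocytes. DNAH5, another such chain, had only 80 UMIs over all stages and no course can be read from it. The intermediate chain genes DNAI1 and DNAI2, which anchor the outer arm motors, both peaked in late spermatocytes. DNAI2 reached 44.8 CPM there, with 13.2 CPM in pachytene and 2.59 CPM in round cells.

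Genes of the radial spokes and of the nexin-dynein regulatory complex parted in how long their RNA lasted. RSPH1, a spoke head protein, went from 1043 CPM (interval 1007 to 1081) in pachytene to 101 CPM in round and 40.9 CPM (37.5 to 44.4) in elongating cells. RSPH9, which sits in the same spoke head, was at 587 CPM in pachytene, 824 in late spermatocyte, 658 in round and 533 in elongating cells. RSPH3, a stalk protein, was highest in round cells at 117 CPM. DRC1, DRC3 and DRC7, subunits of the regulatory complex, all peaked in late spermatocytes. DRC3 varied little, between 461 CPM in elongating and 908 CPM in late spermatocyte cells.

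The members known from the central pair and from dynein arm assembly differed in their course. SPAG6, a central pair protein, stood at 394 CPM in late spermatocytes, 372 in round and 66.4 in elongating cells. SPAG17, a large protein of a central pair projection, went from 85.9 CPM in pachytene to 178 CPM in round and 145 CPM in elongating cells. CFAP221, of another central pair projection, was highest in elongating cells, at 122 CPM, with 93.8 CPM in round cells. CFAP298, an assembly factor of the dynein arms, was at 1276 CPM in pachytene and 1278 CPM in late spermatocytes and at 215 CPM in elongating cells. CFAP70 had 130 CPM in pachytene and 8.66 CPM in round cells. CFAP97 was high in spermatocytes and again in elongating cells, with 1641 CPM in pachytene, 594 in round and 1850 in elongating cells.

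All 5 tektins, filament proteins of the doublets, had their highest stage in round spermatids. TEKT1 climbed from 436 CPM in pachytene and 674 in late spermatocytes to 1499 CPM (1482 to 1516) in round cells, and was at 839 CPM in elongating cells. TEKT2 held its level longer, at 1442 CPM in round and 1356 CPM in elongating cells. TEKT3 and TEKT4 passed the onset threshold in late spermatocytes. TEKT5, the tektin best known from the sperm tail, was at 27.5 CPM in pachytene and 24.2 CPM in late spermatocytes, then at 461 CPM (451 to 470) in round cells. TEKT5 was detected in 31.2% of pachytene and 96.2% of round cells. Within the round class TEKT5 was at 348 CPM in cluster 1 and 552 CPM in cluster 4, the cluster with more HMGB4.

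The intraflagellar transport genes were mostly early. Of 14, 13 had enough UMIs, 12 had a pachytene onset (71.6% of all genes), and 7 peaked there (33.8% of all genes). IFT88, a core subunit of the outbound B train, stood at 106 CPM in pachytene, 27.0 in late spermatocytes and 47.2 in round cells. IFT74 and IFT81, which bind tubulin together, peaked in round and late spermatocyte cells, respectively. IFT57, a peripheral B subunit, was the exception: 174 CPM in pachytene, 277 in late spermatocytes, 1014 in round and 485 in elongating cells. IFT43, of the returning A train, was at 79.4 CPM in pachytene and 198 CPM in round cells.

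The genes that came on in spermatids differ in function. CFAP97D1, a protein needed to keep the sperm axoneme intact, was at 60.1 CPM in pachytene, 55.4 in late spermatocytes, 745 in round and 1064 in elongating cells. CFAP20, an inner junction protein of the doublets, and CFAP100 also had their onset in round cells. SPAG4, a nuclear envelope protein that takes part in joining the tail to the sperm head, went from 43.8 CPM in pachytene to 375 CPM in round and 562 CPM in elongating cells. ODF3 was detected mainly in round cells, with 3.15 CPM in late spermatocytes, 76.2 CPM (72.3 to 80.2) in round and 8.28 CPM in elongating cells.

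The ODF family, named for the outer dense fibres, held the latest onsets, as a share of the UMIs of a class. Median depth was 13468 UMIs per cell in the control round, 7282 in the elongating and 1157 in the elongated class. Whether ODF1 or ODF3L2 RNA per cell rose there was not tested. ODF2, which is also a centriole protein, was present throughout and peaked in elongating cells at 2421 CPM, from 950 CPM in pachytene. ODF1, a major fibre protein, stood at 37.3 CPM in pachytene, 146 in round, 219 in elongating and 1445 CPM (1362 to 1532) in elongated cells. ODF3L2 ran from 0.899 CPM in late spermatocytes to 11.9 CPM in elongating and 114 CPM (91.1 to 140) in elongated cells, where it rested on 88 UMIs. ODF2L, a centriole protein, peaked in pachytene. SPAG5, a mitotic spindle protein, and SPAG9, a signalling scaffold, carry the prefix without being axoneme proteins, and both peaked in late spermatocytes.

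The elongated class was shallow, with a median of 1157 UMIs per cell, and spermatocyte genes appeared to climb there again. RSPH1 went from 40.9 CPM in elongating to 89.0 CPM in elongated cells. AURKA, a kinase of late spermatocytes and no member, went from 32.5 to 77.4 CPM over the same step. No late rise is read from such genes, and the part of RNA from other cells was not tested.

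**Figure D2:**
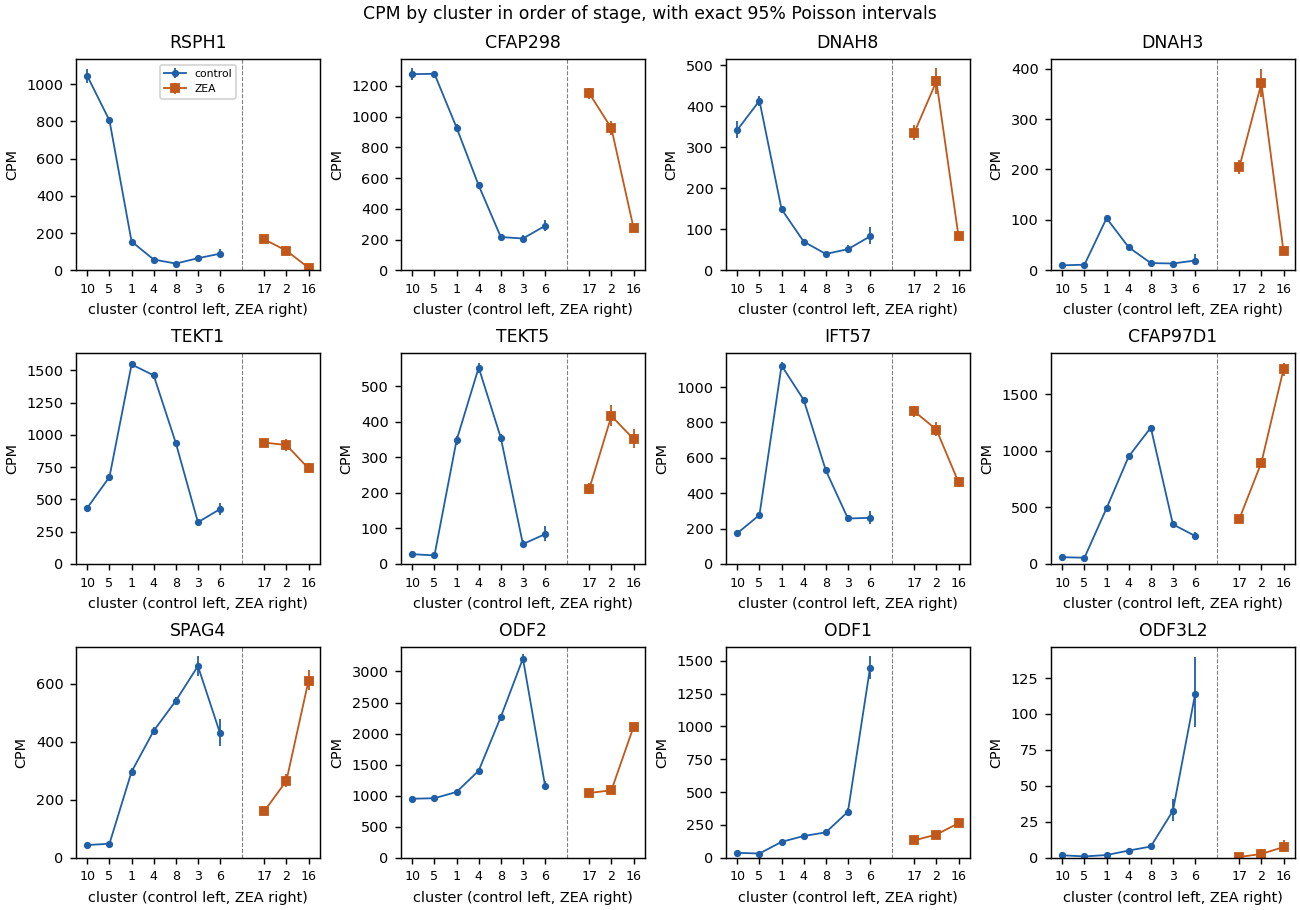
CPM (vertical axes) of 12 members in the 7 control clusters in order of stage (circles, left) and the 3 ZEA clusters of the round and elongating classes (squares, right), with exact 95% Poisson intervals as bars. RSPH1 and CFAP298 descend from the spermatocyte clusters, TEKT5 and IFT57 are highest in the round clusters, and ODF1 and ODF3L2 are highest in control cluster 6.

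Most members were lower in elongating than in round spermatids, in each library taken alone. With 50 UMIs in each library, 72 members could be followed. In the control library 38 were at least 2-fold lower in elongating cells, where 34.4% of all genes were, and 1 was at least 2-fold higher, where 8.37% of all genes were. In the ZEA library 45 were at least 2-fold lower (44.5% of all genes) and 3 at least 2-fold higher (16% of all genes). The median log2 change was -1.10 over the members and -0.60 over all genes in control cells, and -1.50 and -0.78 in ZEA cells. Of the 72, 60 were lower in elongating cells in both libraries, 7 were higher in both, and 36 were at least 2-fold lower in both.

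Among the members with 50 UMIs in each library, only CFAP97 was at least 2-fold higher in elongating cells of the control library. In the ZEA library CFAP97, SPAG4 and CFAP97D1 were. ODF3L2 was left out because it had only 25 UMIs in the ZEA library. In control cells ODF3L2 was also more than 2-fold higher, with a log2 change of 1.71 (interval 1.30 to 2.13) on 232 UMIs. On the log2 scale CFAP97 changed by 1.64 (interval 1.61 to 1.67) in control cells and by 1.90 (1.82 to 1.97) in ZEA cells. SPAG4 changed by 0.58 and 1.62, CFAP97D1 by 0.51 and 1.53, ODF2 by 0.96 and 0.99, and ODF1 by 0.59 and 0.87. At the other end ODF3 changed by -3.20 in control cells and by -3.66 in ZEA cells. RSPH1 changed by -1.30 (-1.44 to -1.17) in control cells and by -3.40 (-3.98 to -2.86) in ZEA cells. RSPH9 and TEKT2 lay slightly below 0 in the control library, at -0.30 and -0.09, and above 0 in the ZEA library, at 0.62 and 0.50.

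**Figure D3:**
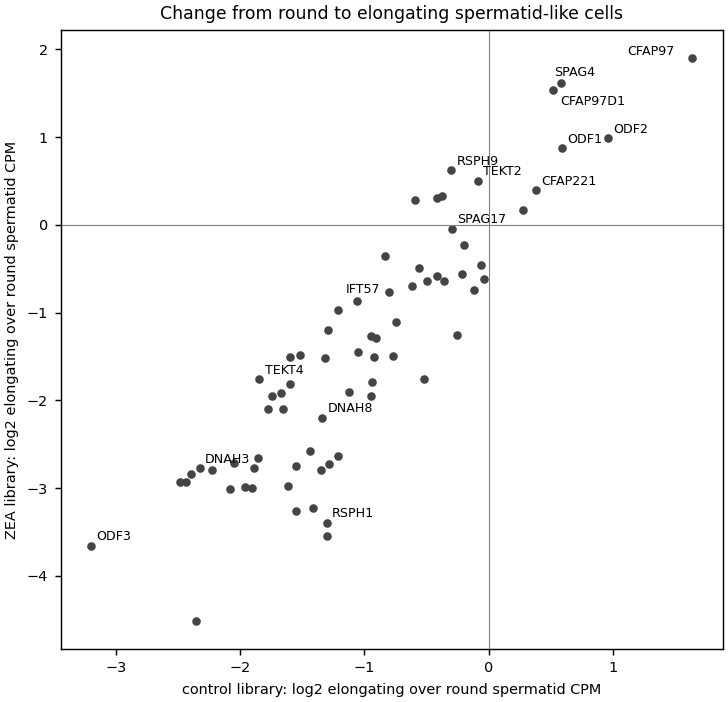
Each point is 1 of 72 members, plotted by its log2 ratio of elongating to round spermatid-like CPM in the control library (horizontal) and in the ZEA library (vertical). Of these, 60 lie below 0 on both axes and 7, among them CFAP97, SPAG4, CFAP97D1, ODF2 and ODF1, lie above 0 on both.

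At the round stage the dynein heavy chains and IFT genes had higher CPM in the ZEA library, and the tektins lower CPM. A gene entered with 50 UMIs over both libraries, a UMI in 5% of the stage's cells of 1 library, and a level of at least 25% of its highest class. Of 78 members 71 entered, of which 26 were at least 2-fold higher in ZEA cells, where 17.4% of all genes were, and 0 at least 2-fold lower, where 8.41% of all genes were. The median log2 ratio was 0.62 over the members and 0.26 over the 6388 genes that entered. The 25% rule was applied in the library with the higher level, so that a gene could enter through the ZEA library alone. Of the 26 higher members, 6 did so: DNAH6, DNAH10, CFAP70, IFT140, IFT20 and ODF2L. With the rule in both libraries, added after the values were seen, 62 members entered, 20 were at least 2-fold higher (13.3% of all genes) and 0 at least 2-fold lower (5.93% of all genes).

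Of 9 DNAH genes that entered, 8 were at least 2-fold higher (17.4% of all genes), with a median log2 ratio of 1.81. With the rule in both libraries it was 6 of 7 (13.3% of all genes), with a median of 1.49. DNAH7 stood at 16.9 CPM in control and 75.9 CPM in ZEA round cells, a log2 ratio of 2.17 (1.96 to 2.38). DNAH3 was at 71.3 and 255 CPM. DNAH8 was at 106 CPM in control and 371 CPM in ZEA round cells, a log2 ratio of 1.81 (1.73 to 1.90). In each of these the ZEA round value lay above both control round clusters. DNAH6, at 19.2 and 81.2 CPM, and DNAH10, at 7.42 and 27.3 CPM, entered through the ZEA library alone. Of 13 IFT genes 7 were at least 2-fold higher (17.4% of all genes), with a median of 1.05. With the rule in both libraries 5 of 10 were (13.3% of all genes). Of 23 CFAP genes 7 were (17.4% of all genes), and 6 of 22 with the rule in both (13.3% of all genes). CFAP70 had a ratio of 1.83 (1.51 to 2.14) and entered through the ZEA library alone, its control round level of 8.66 CPM standing against 130 CPM in pachytene.

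The tektins lay on the other side, by less than 2-fold. All 5 were lower in ZEA round cells, with a median log2 ratio of -0.64. TEKT1 was at 1499 and 933 CPM, a ratio of -0.68 (-0.73 to -0.64), and TEKT5 at 461 and 285 CPM, a ratio of -0.69 (-0.77 to -0.62). SPAG4 had the lowest ratio of the members that entered, -0.92 (-1.01 to -0.83), with 375 and 198 CPM. Scaling the libraries by the median of the gene ratios instead of by all UMIs moved every round ratio down by 0.26. It left 14 of 71 members at least 2-fold higher (10.4% of all genes) and put only SPAG4 at least 2-fold lower (13% of all genes).

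In elongating cells fewer members stood apart. Of 44 that entered, 3 were at least 2-fold higher in ZEA cells (10.7% of all genes) and 1 at least 2-fold lower (4.31% of all genes). The median log2 ratio was 0.36 over the members and 0.17 over all genes. CFAP70 was at 10.5 CPM in control and 34.6 CPM in ZEA cells, a ratio of 1.72 (1.30 to 2.14). SPAG17 was at 145 and 352 CPM, a ratio of 1.28 (1.15 to 1.40), and CFAP44, a protein tethering the inner arms, was at 41.5 and 87.5 CPM. CFAP77 was lower, on 101 control and 4 ZEA UMIs. Median scaling, a shift of 0.17, left 2 members higher (7.2% of all genes). With the 25% rule in both libraries only SPAG17 was higher (9.66% of all genes) and none lower (4.15% of all genes).

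The DNAH level also varied between round clusters of the same library. It was higher in the shallower round cluster of each library, but in no single order with HMGB4. The cause of that order was not tested. Within the ZEA library the DNAH genes summed to 913 CPM in the deep cluster 17 (HMGB4 3089 CPM) and to 1348 CPM in the shallow cluster 2 (HMGB4 5174 CPM). Within the control library they summed to 439 CPM in cluster 1 (median 12736 UMIs, HMGB4 5695 CPM). In cluster 4 (median 14247.5 UMIs, HMGB4 8532 CPM) they summed to 236 CPM. Taking only round cells with at least 5000 UMIs did not lower the count of higher members: 28 were at least 2-fold higher (18.4% of all genes), with a median of 0.75. Without the shallow ZEA cluster 2 it was 32 (22.3% of all genes), with a median of 0.86. Without control cluster 4 it was 8 (9.75% of all genes), with a median of 0.39. An unnamed control cluster of 1530 cells (cluster 0), whose round spermatid markers scored highest and early spermatocyte markers next, had a median of 1039 UMIs per cell. At Leiden resolution 2, unnamed shallow clusters with the same leading gene, LCA5, held 981 and 542 control cells. The former scored highest for round spermatid and the latter for late spermatocyte markers, so cluster 0 may mix stages. In cluster 0 the DNAH genes summed to 1834 CPM, the highest level at the lowest median depth of the clusters given here. Its levels of HMGB4 (3785 CPM), SYCP1 (249 CPM), SPEM1 (689 CPM) and ACRV1 (430 CPM), an acrosome protein of round cells, lay nearer to those of ZEA cluster 2 (5174, 230, 558 and 453 CPM) than to those of control cluster 1 (5695, 58.5, 324 and 314 CPM). The HMGB4 level of cluster 0 was nearer still to that of ZEA cluster 17 (3089 CPM). SYCP1 in cluster 0 and in ZEA cluster 2 was above the level of the control pachytene class (166 CPM). AURKA was at 173 CPM in cluster 0, far above both ZEA cluster 2 (40.3 CPM) and control cluster 1 (52.1 CPM).

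Set against the control round class, this shallow control cluster showed family differences of the kind given above for the ZEA library. All 11 DNAH genes were at least 2-fold higher in cluster 0, with a median log2 ratio of 2.29, where 24.9% of all genes were. DNAH8 stood at 713 CPM there and 106 CPM in the control round class, and DNAH7 at 184 and 16.9 CPM. IFT genes were at least 2-fold higher in 7 of 13, with a median of 1.08. The tektins had a median of -0.67, with 1 of 5, TEKT5, at least 2-fold lower, where 12.4% of all genes were. The ratios of ZEA cells and of cluster 0 share the control round class as their denominator, so their likeness is a description. Cluster 0 was set beside them after the values were seen.

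**Figure D4:**
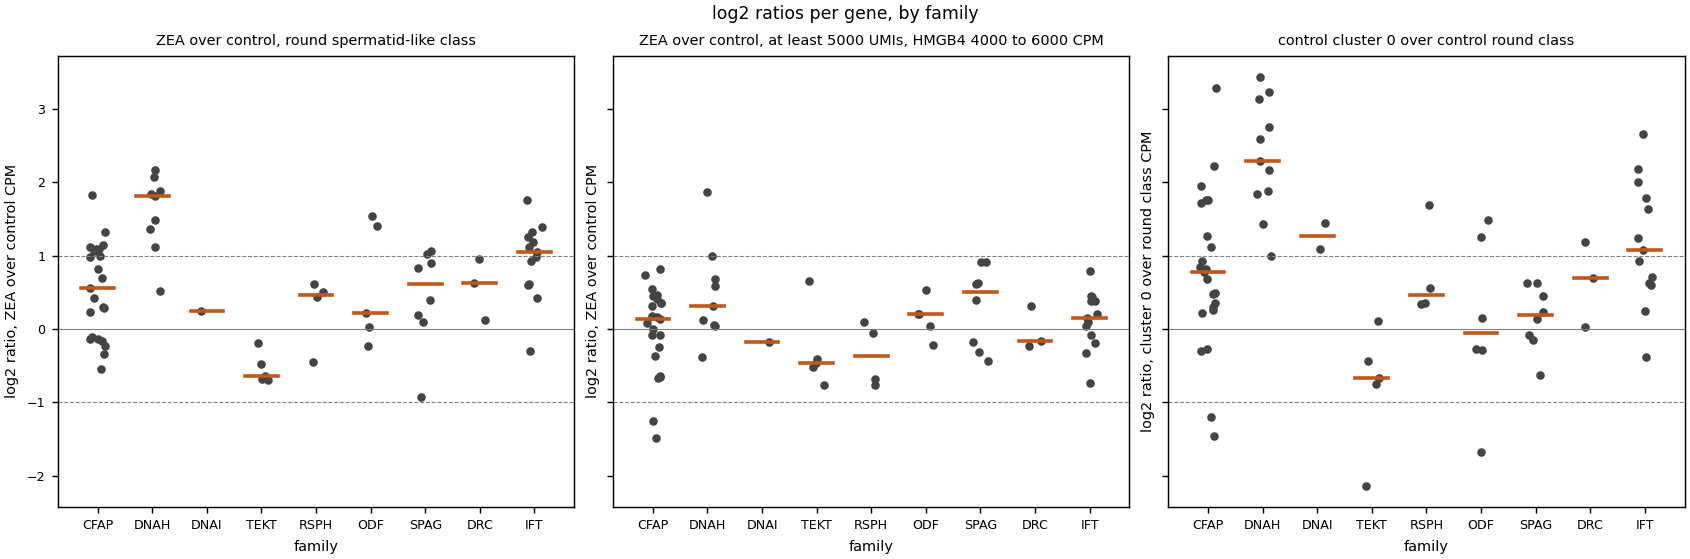
log2 ratios of CPM per member (points) by family, with the family median as a bar and 2-fold limits as dashed lines. The panels show ZEA over control round spermatid-like cells (left), ZEA over control cells with at least 5000 UMIs and HMGB4 between 4000 and 6000 CPM (middle), and the unnamed control cluster 0 over the control round class (right). The DNAH median is 1.81 on the left, 0.31 in the middle and 2.29 on the right.

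In cells within 1 range of HMGB4 and above a depth floor, few members differed by 2-fold. Spermatid cells with at least 5000 UMIs and HMGB4 between 4000 and 6000 CPM numbered 329 from control and 97 from ZEA tissue. Of these, 146 control and 48 ZEA cells had an HMGB4 level within 10% of an edge of the range. Depth still differed, with a median of 12539 UMIs in control and 8347 in ZEA cells. SPEM1 was at 274 and 265 CPM there, ACRV1 at 313 and 324 CPM, and SYCP1 at 64.7 and 76.1 CPM. TNP1, a transition protein, was at 345 and 538 CPM, and AURKA at 57.2 and 29.3 CPM, so that these 2 markers lay further apart. Of 71 members that entered, 1 was at least 2-fold higher in ZEA cells (5.05% of all genes) and 2 at least 2-fold lower (4.62% of all genes). The median was 0.10 over the members and 0.05 over all genes. The DNAH median was 0.31, with DNAH7 at 33.7 and 34.8 CPM and DNAH8 at 157 and 171 CPM. The 3 members past 2-fold, named after their values were seen, were DNAH1 (33 and 25 UMIs), CFAP52 (194 and 69.5 CPM) and CFAP61 (138 and 12 UMIs). Of the 26 members higher in the whole round class, 5 had a ratio below 0 here: IFT140 at -0.74, DNAH11 at -0.39, ODF3L1 at -0.22, IFT80 at -0.09 and CFAP58 at -0.08. Each of these 5 intervals held 0, and IFT140 rested on 7 and DNAH11 on 18 ZEA UMIs, so no reversal is read from them.

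The neighbouring HMGB4 ranges gave few such members as well. Between 2000 and 4000 CPM (51 control and 219 ZEA cells) 3 of 71 (IFT80, CFAP300 and SPAG7) were at least 2-fold higher (7.91% of all genes) and 0 lower (3.74% of all genes). There SPEM1 was unmatched, at 669 CPM in control and 66.7 CPM in ZEA cells. Between 6000 and 10000 CPM (876 and 69 cells) 2 of 73 (SPAG17 and DNAH2, the latter on 5 ZEA UMIs) were at least 2-fold higher (6.53% of all genes) and 2 (RSPH1 and CFAP52) lower (8.74% of all genes). In that range SPEM1 was at 1099 CPM in control and 1118 CPM in ZEA cells, but TNP1 at 803 and 1409 CPM.

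Over the 3 ranges most members kept a direction, as did most of all genes. Of 71 members in all 3, 30 were higher in ZEA cells in each (33.8% of all genes), 19 lower in each (27.9% of all genes) and 22 mixed. The interval of the ratio lay above 0 in all 3 ranges for 10 members, where 10.7% of all genes did so, and below 0 for 10, where 9.07% of all genes did so. Both interval counts lie near those shares, and the values that follow are a description. SPAG17 was at 195 CPM in control and 368 CPM in ZEA cells in the middle range, with a log2 ratio of 0.89 to 1.00 over the ranges. CFAP97D1 ran from 0.72 to 0.82, with 436 and 767 CPM in the middle range, although it was lower in the ZEA round class as a whole. IFT74 and IFT81 were also higher in all 3, at 0.66 to 0.80 and 0.28 to 0.64.

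On the lower side were TEKT1, TEKT2, TEKT3 and TEKT4 but not TEKT5, whose ratios ran from 0.02 to 0.66. TEKT1 was at 1524 CPM in control and 1151 CPM in ZEA cells in the middle range, and at -0.55 to -0.37 over the ranges. RSPH1 ran from -1.66 to -0.31 and RSPH9 from -0.76 to -0.43. CFAP52, an inner protein of the doublets, ran from -1.48 to -0.90, and SPAG4 from -0.86 to -0.43. The ranges are 3 sets of cells from the same 2 libraries and are not replicates.

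Among other flagellum genes, taken from lists by function, the share with a pachytene onset lay on both sides of the 71.6% over all genes. Onset was pachytene in 18 of 20 partners of the spokes and doublets, in 14 of 19 dynein light chain, docking and assembly genes, in 15 of 16 IFT partners and in 11 of 16 genes of the fibrous sheath and tail surface. The fibrous sheath list had 5 with a round spermatid onset, among them AKAP4, its main scaffold. AKAP4, named after its values were seen, stood at 33.9 CPM in pachytene, 169 in round and 478 in elongating cells.

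At the matched round stage, where 17.4% of all genes were at least 2-fold higher in ZEA cells, the share differed between these lists. At least 2-fold higher were 6 of 19 spoke and doublet partners, 5 of 17 dynein light chain, docking and assembly genes, 7 of 14 IFT partners and 4 of 15 sheath and surface genes. Of 9 transcription factors of the germ line or of cilia, 2 (TBPL1 and MYBL1) were higher. With the 25% rule in both libraries (13.3% of all genes) it was 6 of 18 spoke and doublet partners, 1 of 13 dynein light chain, docking and assembly genes, 1 of 6 IFT partners, 1 of 11 sheath and surface genes and 1 of 8 transcription factors. At least 2-fold lower was 1 gene, the dynein light chain gene DNAL4, where 8.41% of all genes were (5.93% with the rule in both libraries). HYDIN, a very large central pair protein, was at 19.8 and 65.8 CPM, and QRICH2 at 15.6 and 72.6 CPM. FSIP2, a fibrous sheath protein, at 254 and 1186 CPM, and DYNC2H1, the motor of the returning IFT train, at 32.1 and 120 CPM, entered through the ZEA library alone. RFX3, a factor of cilium genes, had a log2 ratio of -0.72 (-0.90 to -0.54).

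Outside the germ line the members were also detected, in both libraries. In the control library they summed to 8736 CPM in 118 Sertoli-like cells, where HMGB4 was at 2973 CPM, and to 6909 CPM in 33 leukocytes. Control round spermatids had 16453 CPM. The values that follow are of the ZEA library, which held most of the somatic cells. Summed over the members, the level was 3441 CPM in endothelial, 4117 in peritubular myoid, 4749 in perivascular, 5052 in leukocyte and 5805 CPM in stromal fibroblast cells, against 17989 CPM in ZEA round spermatids. In the 2721 endothelial cells the 75 members had a median of 14.1% of their highest germ cell level, between 4.49% for ODF3L2 and 111% for SPAG9, and SPAG7 and SPAG9 were above 50%. HMGB4 stood at 11.1% there, SPEM1 at 11.0%, TNP1 at 12.1% and ACRV1 at 4.69%. In the 325 stromal fibroblast cells the median was 24.2%, with 10 members above 50%, and HMGB4 stood at 22.4%, SPEM1 at 19.2%, TNP1 at 24.8% and ACRV1 at 10.3%. SPAG9 reached 135% of its germ cell level in stromal fibroblasts, on 122 UMIs. SPAG8 reached 90.7% in leukocytes and IFT140 86.8% in stromal fibroblasts, on only 6 and 8 UMIs. DNAI2 in leukocytes and DNAH5 in perivascular cells passed their germ cell levels on 1 and 4 UMIs. IFT46, which is not among the 75, was at 8.09 CPM (68 UMIs) in endothelial cells and at most 0.687 CPM in the ZEA germ cell classes. A cluster of 160 ZEA cells scored highest for the list of multiciliated or rete epithelium, but stayed unnamed because only 2 of 8 markers were enriched. It had PAX8 at 388 CPM and EPCAM at 68.1 CPM, but 17 UMIs of KRT8, 4 of CDH1, 4 of CCNO and 0 of PAX2. FOXJ1, the master factor of motile cilia, had 6 UMIs there and MCIDAS 0.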

How the data were processed

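Single-cell 3' libraries of testis were made with a 10x Genomics gel bead kit (V3), per the labels. Values in the deposited matrices are UMI counts by gene and barcode, with no normalization. STAR and Cell Ranger 3.1.0 are named in the submitters' processing notes, whereas Cell Ranger 5.0.0 (control) and 3.1.0 (ZEA) are named per the file headers. Genome build, annotation and choice of barcodes: not given in the sources used here.

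Cells were kept with at least 500 UMIs, 200 genes and at most 20% mitochondrial UMIs (13 genes). Scrublet in scanpy 1.11.5 marked 198 control (2.82%) and 1 ZEA barcode (0.0114%) as doublets, which were left out; it has not worked in the ZEA library, where doublets remain. The 2000 most variable genes without any member, 30 components, 15 neighbours and Leiden resolution 1 (igraph 0.11.9) gave 25 clusters, with no integration. Of these, 18 were named from 16 marker lists, by a naming rule written after the clusters were seen. UMIs were summed per library and class and scaled to CPM. Intervals are exact Poisson for a level and exact conditional binomial for a ratio; a count of 0 was set to 3 in a ratio. They treat the UMIs as independent. The ratio step was tested on simulated counts.

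The members, gene lists and alternatives were chosen with earlier results of these data known. Named were the 3 members per family with the most UMIs, the 4 per onset stage, the 5 highest and 5 lowest ratios per matched stage, and 3 partners per list, by largest ratio in either direction; other members named were singled out after their values were seen. Reads of overlapping genes cannot be told apart here, and levels are not compared between genes. Matching cells by HMGB4, leaving out clusters, the free-RNA rule in both libraries and control cluster 0 were added after seeing the data. The alternatives changed the onset threshold, UMI minimum, scaling, cell weight, depth, clustering, doublet and free-RNA rules.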

Additional observations from a re-analysis of the deposited data

How the results depend on the processing

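No paired analysis was possible because each group has 1 library. Shares over all genes are in brackets. The count of members at least 2-fold higher in ZEA round cells was 26 of 71 (17.4%). It became 14 of 71 with median scaling (10.4%) and 15 of 72 with clusters at resolution 2 (12.3%). With cells thinned to 500 UMIs it was 10 of 44 (15.6%). Only 13 of the 26 entered after thinning, and 9 stayed higher. The count was 17 of 69 without ZEA cluster 17 (14.8%) and 8 of 70 without control cluster 4 (9.75%). In cells with at least 5000 UMIs and HMGB4 between 4000 and 6000 CPM it was 1 of 71 (5.05%). It stayed within 1.5 times under the other alternatives run. The count at least 2-fold lower was 0 (8.41%). It became 1 with median scaling (13%), without the free-RNA rule (9.07%) and without ZEA cluster 17 (3.79%). It was 2 in cells with at least 5000 UMIs (12%), without ZEA cluster 2 (14%) and in the HMGB4-matched cells (4.62%). In elongating cells the 3 higher became 1 and the 1 lower 0 with the free-RNA rule in both libraries, which left 20 of 26 round members higher; the 3 became 5 with a minimum of 1 UMI and 7 with equal weight per cell, and the 1 lower became 0 with a minimum of 200 UMIs or thinning and 2 without the free-RNA rule or with HMGB4 matched between 6000 and 10000 CPM. Round spermatid onsets, 7, became 14 at a threshold of 50% and 0 when each cell was staged by its marker score, which also took the elongated onsets from 2 to 0. With HMGB4 between 6000 and 10000 CPM, CFAP70 was at -0.42 (-2.32 to 0.98) on 4 ZEA UMIs. That set held 69 ZEA cells and was not limited to elongating cells, of which the ZEA library had 42 of that depth. With HMGB4 between 4000 and 6000 CPM, DNAH11 was at -0.39. There 4 more of the higher round members (IFT140, ODF3L1, IFT80 and CFAP58) also lay below 0, and each of these intervals held 0. Beyond the HMGB4 matching and the left-out clusters, the cause of these moves was not tested. Elongating cells with at least 5000 UMIs were not compared (42 in the ZEA library), and no cluster held 50 cells of each library. Shallow ZEA cells limit genes of few UMIs, and doublets remain in that library.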
